A study of Mus musculus with 40 samples.

Results

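Marker genes of the nephron segments were followed in kidney and liver RNA of mice given phenobarbital (PB) and of their controls. The 41 genes were listed by symbol for 6 cell groups (podocyte, proximal tubule, thick ascending limb of the loop of Henle, distal convoluted and connecting tubule, collecting duct principal cell and intercalated cell). Each was measured by 1 probe set, the one with the highest mean signal over the 20 kidney arrays. A probe set was found for 40 of the 41 genes, out of 18193 genes with a probe set in all, and Trpv5, a calcium channel of the distal tubule, was not analysed here.

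The nephron filters plasma through the podocyte slits of the glomerulus, takes back most of the filtrate in the proximal tubule, separates salt from water in the thick ascending limb, and sets the final salt, water and acid content in the distal tubule and the collecting duct. Each segment carries its own transporters and channels, so their transcripts are widely used to tell the segments apart. In the collecting duct, principal cells move sodium and water under aldosterone and vasopressin, and intercalated cells move acid and base.

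The groups were kidneys of PB-treated mice, kidneys of control mice, livers of PB-treated mice and livers of control mice, with 10 arrays in each. All 20 animals were male B6C3F1/Crl mice (C57BL/6 male crossed with C3H/He female), 29 to 32 days old on arrival and kept for 5 days before dosing. PB is a barbiturate and an activator of the nuclear receptor CAR, which raises enzymes of drug metabolism. The drinking water held it at 0.05% (w/v) over 28 days (4 weeks in the sample labels), and the other animals are labelled control. Each animal gave 1 kidney and 1 liver array, and both organs were cut into pieces before freezing, with the part of the kidney taken for RNA not given in the sources used here.

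Expression was measured on Affymetrix Mouse430_2 arrays as MAS5 signal, a linear intensity which the authors had scaled so that the trimmed mean of each array was 150. The number of arrays limits the precision. Array medians were 30.0 to 34.1 in PB kidneys, 31.4 to 34.9 in control kidneys, 33.6 to 37.2 in PB livers and 32.9 to 37.0 in control livers. Several arrays stood apart within their group. The kidneys of PB animals 15 and 18 and of control animal 4 had Slc14a2 signals, those of a urea transporter of the inner medulla, of 19.8, 45.9 and 11.2, against 163.7 or more in the other PB kidneys and 199.8 or more in the other control kidneys. Transcripts of fat cells were high in some PB kidneys, with Adipoq, which encodes the fat hormone adiponectin, at 55.8 to 956.1 in PB kidneys and 3.2 to 115.6 in control kidneys, highest in PB animals 12, 15 and 17. Alb, which encodes serum albumin of the liver, ranged over 79.8 to 1029.6 in PB kidneys and 61.2 to 922.8 in control kidneys. Of the fat cell list, 4 of 5 genes tested were higher in PB kidneys (7 of 8 listed had a probe set). Its summed signal was 948.1 to 7811.6 in PB kidneys and 833.5 to 1579.4 in control kidneys. Bulk tissue was measured, so fewer cells of a segment and less RNA per cell cannot be told apart.

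The marker signals went with the tissue labels, with exceptions among the faintest. In PB mice 39 of 40 markers were called higher in kidney than in liver at a Benjamini-Hochberg adjusted p under 0.05 in limma, where 47.6% of the 10992 genes tested were. In control mice all 37 markers that passed the signal filter (a mean of at least 50 in either group) were called higher in kidney, against 45.1% of the 10890 genes tested. Part of this was built in, because probe sets were chosen by kidney signal. In addition, 31 of the 40 markers had means under 50 in both liver groups and could pass the filter only through kidney. The median log2 difference, kidney minus liver, was 4.97 over the 40 markers in PB mice (0.14 over all genes tested) and 4.95 over the 37 markers in control mice (0.10 over all genes). Centring each array on its median moved the median of all genes to -0.07 in both, and turned the split of all calls from 5235 higher and 3874 lower to 4204 and 4920 in PB mice, and from 4912 and 3867 to 4073 and 4775 in control mice. After quantile normalization the splits were 4540 and 4596, and 4369 and 4515. The markers called numbered 39 and 37 with the animal as a block.

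For 38 of the markers every PB kidney lay above every PB liver, which held for 30.3% of all genes, and for all 37 markers tested every control kidney lay above every control liver, which held for 28.5%. The exceptions were faint. Nphs1, which encodes nephrin of the podocyte slit, had signals of 30.2, 56.6 and 70.2 (lowest, median and highest) in PB kidneys, 37.0, 47.1 and 68.7 in control kidneys, and 25.6, 41.2 and 60.5 in PB livers. Kidney and liver overlapped for it, and its kidney excess in PB mice was not called (log2 difference 0.38, adjusted p = 0.0516). Cldn19, a tight-junction claudin of the thick ascending limb, spanned 30.2 to 84.6 in PB kidneys and 22.0 to 75.4 in control kidneys, and its lowest PB kidney lay below the highest PB liver at 32.8. In control mice, where neither was tested, the lowest kidney also lay below the highest liver, at 43.0 for Nphs1 and 31.4 for Cldn19. Nphs1, Wt1 (a transcription factor of podocytes) and Cldn19 were the 3 markers under the filter in control kidneys. Podxl and Synpo (a podocyte actin-binding protein) were the podocyte markers clear of the filter in both kidney groups.

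**Figure D1:**
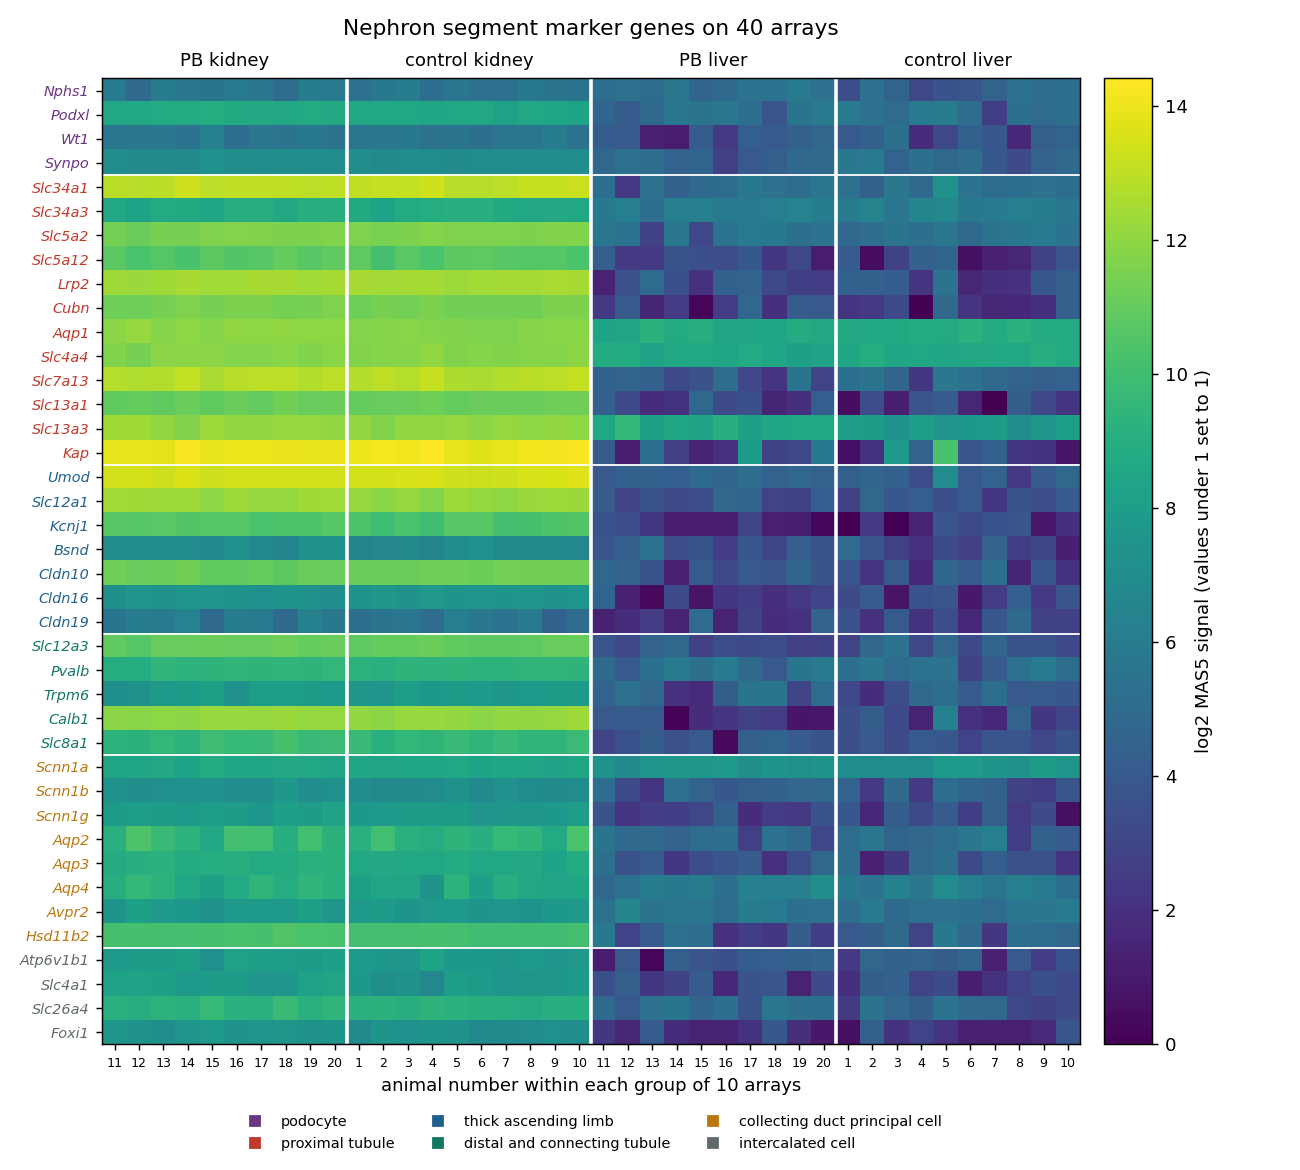
Each cell is the log2 MAS5 signal of a marker gene (rows, coloured by segment) on an array (columns, by animal number), for PB kidney, control kidney, PB liver and control liver with 10 arrays each. Kidney signals exceed liver signals for nearly all markers, while Aqp1, Slc4a4, Slc13a3 and Scnn1a are also bright in liver, and the liver of control animal 5 shows Kap, Slc34a1, Umod and Calb1.

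The anchor genes of the proximal tubule and the thick ascending limb were bright in every kidney and did not differ by a call. Slc34a1, the main sodium-phosphate cotransporter of the proximal brush border, had signals of 7580.2, 8218.0 and 10164.7 in PB kidneys and 7076.7, 8959.5 and 10753.5 in control kidneys. Umod, which encodes uromodulin, the most abundant protein of normal urine, had 10070.7, 11161.6 and 12820.2 in PB kidneys and 9637.4, 11690.6 and 13146.0 in control kidneys. The groups overlapped for both, and neither was called (log2 fold change, PB over control, -0.07 ± 0.064 and -0.05 ± 0.052 (SE), adjusted p = 0.565 and 0.635). Kidney signal of Umod was at least 224-fold that of liver in PB mice and at least 232-fold in control mice, bounds taken against a signal of 50 because the liver means lay below it.

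Slc34a1 and Umod varied together over the kidneys in the deposited values. Among 10 pairs of the 5 anchor genes chosen for the segments (Nphs1, Slc34a1, Umod, Slc12a3 and Aqp2), theirs was the only pair past an adjusted p of 0.05, with Pearson's r = 0.88 (permutation p = 1e-05, the smallest that 100000 resamples can give; adjusted p = 0.0001) and Spearman's rho = 0.83 (permutation p = 2e-05, adjusted p = 0.0002) over 20 kidneys. The r was 0.75 within PB kidneys and 0.93 within control kidneys, 0.87 for deviations from the group means, and 0.84 without the kidneys of PB animal 14 and control animal 4. After quantile normalization of the 20 kidneys it was -0.31 (permutation p = 0.186, adjusted p = 0.38) and so had the opposite sign. The next pair, Slc34a1 and Slc12a3, had r = 0.49 (permutation p = 0.0272, adjusted p = 0.136; rho = 0.47, permutation p = 0.0395, adjusted p = 0.197), with 0.43 within PB kidneys, 0.84 within control kidneys, and 0.43 without the same 2 kidneys. The other 8 pairs had r between -0.30 and 0.25, none past an adjusted p of 0.05.

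In PB kidneys 5 of the 40 markers rose against control kidneys and 0 fell at an adjusted p under 0.05, where 2.58% of the 10082 genes tested were called higher and 1.85% lower. The markers were chosen with earlier results of these data known, so their shares beside all genes are a description and not a test. The 5 were Aqp3 and Hsd11b2 of the principal cell, Foxi1 of the intercalated cell, Aqp1 of the proximal tubule and Podxl of the podocyte. At an unadjusted p under 0.05 in limma, 12 markers were higher and 1 was lower. Of the 10082 genes tested, 2004 were under it in either direction. In all, 28 of 40 log2 fold changes were positive (70.0%, against 53.0% of all genes tested), with a median of 0.10 over the markers and 0.01 over all genes. Nphs1, Wt1 and Cldn19, all positive, passed the filter only through PB kidneys. With a filter at 100, 25 of 37 were positive (median 0.09). For 0 markers did the 10 PB kidneys all lie on 1 side of the 10 control kidneys, and 0.238% of all genes did so. Centring on the median turned the split of all calls from 260 higher and 187 lower to 199 and 265, and quantile normalization gave 243 and 243.

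By segment, all 8 principal cell markers had a positive log2 fold change (median 0.19, 2 called), as had all 4 intercalated cell markers (median 0.27, 1 called) and all 4 podocyte markers (median 0.08, 1 called). The podocyte markers Nphs1 and Wt1 passed the filter only through PB kidneys (means of 53.73 and 51.85, against 49.01 and 49.89 in control kidneys). A positive value was thus favoured by the filter for both. Of the 7 thick ascending limb markers 4 were positive (median 0.16, 0 called), and of the 5 distal and connecting tubule markers 3 were (median 0.01, 0 called). Cldn19 of the thick ascending limb also passed the filter only through PB kidneys (mean of 58.57, against 46.39 in control kidneys). Of the 12 proximal tubule markers 5 were positive and 7 negative (median -0.02, 1 called). Differences between segments were not tested.

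**Figure D2:**
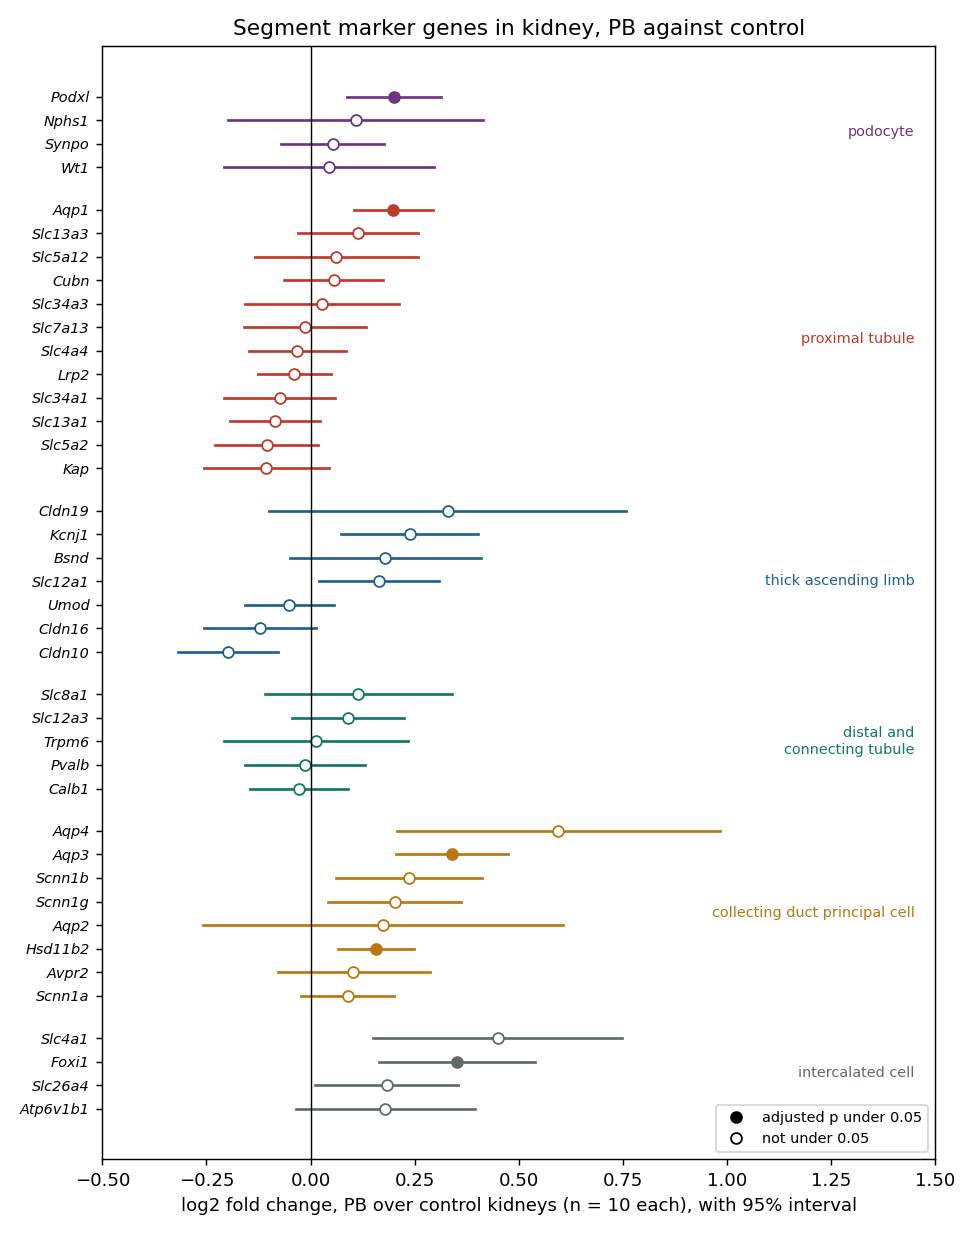
Points are log2 fold changes of the 40 markers in kidney, PB over control (n = 10 each), with 95% confidence intervals from limma, grouped and coloured by segment; filled points have an adjusted p under 0.05. Podxl, Aqp1, Aqp3, Hsd11b2 and Foxi1 are filled, all to the right of 0, and the proximal tubule markers cluster about 0.

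Aqp3, the water and glycerol channel of the basolateral face of principal cells, had signals of 451.8, 505.7 and 607.2 in PB kidneys and 331.2, 404.9 and 474.1 in control kidneys. The groups overlapped, but 6 PB kidneys lay above all controls, 8 control kidneys lay below all PB kidneys, and all 10 PB kidneys lay above the control median. The mean was 514 ± 56.6 in PB kidneys and 406 ± 41.1 in control kidneys (SD, n = 10 each), a log2 fold change of 0.34 ± 0.065 (SE, limma adjusted p = 0.0039). A further pair of probe sets of Aqp3 with kidney signal gave mean log2 differences of 0.16 and 0.35 in the same direction. The 250 bases before its start are shown because Aqp3 had the lowest adjusted p of the markers that rose and carries a TATA box, TATAAA, in capitals, 29 bases before the start (RefSeq promoter table of the build GRCm38.p6, chr4:41098184-41098433, minus strand, 5′ to 3′ on the strand of the gene).
Aqp3: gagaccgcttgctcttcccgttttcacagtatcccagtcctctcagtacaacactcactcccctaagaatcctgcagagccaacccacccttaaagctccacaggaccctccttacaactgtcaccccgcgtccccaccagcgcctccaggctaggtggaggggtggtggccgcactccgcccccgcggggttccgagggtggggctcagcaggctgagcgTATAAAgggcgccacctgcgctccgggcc
The table held promoters for 27 of the 40 markers. The letters TATAAA stood on either strand in 12.4% of all 32851 promoters, over the same 250 bases, and in 5 of the 27 markers (Aqp3, Avpr2, Kap, Slc12a3 and Slc26a4). A match is a description of the letters in this window, and binding was not measured.

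Foxi1, the transcription factor that intercalated cells need for their identity, had signals of 144.2, 181.4 and 212.4 in PB kidneys and 111.9, 140.2 and 174.3 in control kidneys. The groups overlapped, with 6 PB kidneys above all controls and 10 above the control median. Its log2 fold change was 0.35 ± 0.090 (SE, adjusted p = 0.0269). The forkhead letters TGTTTAC, on either strand, were in 3.17% of all promoters and in 4 of the 27 (Atp6v1b1, Avpr2, Slc12a1 and Slc34a3), in Atp6v1b1 98 bases before the start.

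Aqp1, the constitutive water channel of the proximal tubule and the descending thin limb, also found in red cells and in some vessels, had signals of 3537.8, 4020.4 and 4640.9 in PB kidneys and 3147.6, 3521.8 and 3690.8 in control kidneys. Of the PB kidneys 8 lay above all controls and the other 2 overlapped with them. Its log2 fold change was 0.20 ± 0.046 (SE, adjusted p = 0.0157). Podxl, which encodes the sialomucin podocalyxin of podocytes and of vascular endothelium, had 382.4, 425.9 and 479.6 in PB kidneys and 302.9, 388.5 and 405.3 in control kidneys, with 7 PB kidneys above all controls (log2 fold change 0.20 ± 0.055, adjusted p = 0.0372). Of 10 endothelial marker genes tested, 0 were called (median log2 fold change 0.03; summed signal 2017.8 to 2747.1 in PB kidneys and 1973.8 to 2605.6 in control kidneys).

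Hsd11b2, the enzyme that inactivates glucocorticoid and so keeps the mineralocorticoid receptor of principal cells for aldosterone, had signals of 1131.3, 1195.1 and 1424.7 in PB kidneys and 1002.2, 1123.3 and 1170.9 in control kidneys. All 10 PB kidneys lay above the control median and 7 above all controls, with overlap of the rest. Its log2 fold change was 0.16 ± 0.044 (SE, adjusted p = 0.0430). Of the genes listed as responding to aldosterone 1 of 8 was called higher and 2 lower.

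**Figure D3:**
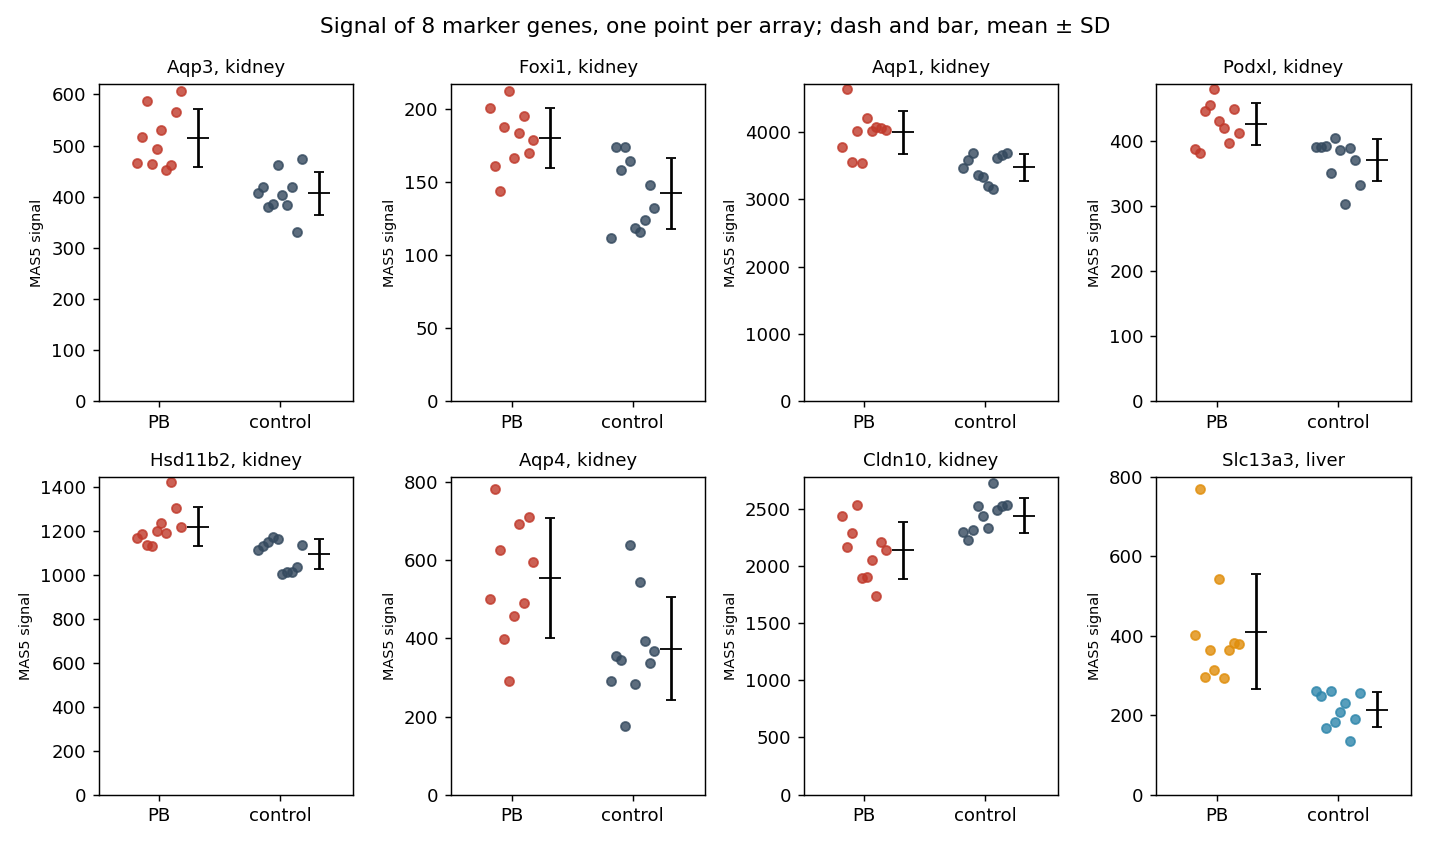
MAS5 signal, on axes from 0, of 7 markers in PB and control kidneys and of Slc13a3 in PB and control livers, with 1 point per array and the mean ± SD beside it (n = 10 each). All kidney groups overlap, whereas the PB livers, from 292.9 upward, all lie above the highest control liver at 262.0 for Slc13a3.

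The largest log2 fold change of the principal cell markers was not called. Aqp4, a basolateral water channel strongest toward the inner medulla, had signals of 289.7, 547.8 and 783.1 in PB kidneys and 175.9, 349.9 and 640.0 in control kidneys, with overlap, a log2 fold change of 0.60 ± 0.188 (SE) and an adjusted p of 0.0690. The other Aqp4 probe sets with kidney signal gave smaller mean log2 differences, 0.338 and 0.335. With the mean of a gene's probe sets the log2 fold change of Aqp4 was 0.42 (limma adjusted p = 0.219). Aqp2, the vasopressin-regulated apical water channel, had 395.5, 744.8 and 1334.0 in PB kidneys and 448.3, 619.9 and 1269.7 in control kidneys. Its values overlapped across nearly the whole range, with the highest coefficient of variation of the markers (37.9% in PB kidneys and 37.5% in control kidneys, against medians over the 40 markers of 11.5% and 11.0%), and its log2 fold change was 0.17 ± 0.209 (adjusted p = 0.700). The sodium channel subunits Scnn1a, Scnn1b and Scnn1g and the vasopressin receptor Avpr2 had log2 fold changes between 0.09 and 0.24, none called.

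Kidneys with little Slc14a2 were at the edge of their group for some markers, while other markers of the same segments differed. PB kidneys 15 and 18 and control kidney 4 had Aqp2 signals of 395.5, 522.3 and 485.8, each the lowest or second lowest of its group. For Slc12a1, the sodium-potassium-chloride cotransporter of the thick ascending limb, they had 4063.5, 4442.7 and 3360.9, again the low end of each group. For Slc26a4, the chloride-bicarbonate exchanger pendrin of cortical intercalated cells, they had 817.9, 837.8 and 666.7, the high end of each group. These genes were picked for their values, and others went another way. Cldn16 of the thick ascending limb had 185.7, 178.2 and 212.7, above the group medians (173.4 in PB and 178 in control kidneys). Scnn1a of the principal cell had 461.3, 408.6 and 357.4, also above the medians (364.4 and 356.6). Umod was low in PB kidney 15 (10070.7) and high in control kidney 4 (12800.7). The part of these 3 kidneys in the results was measured by leaving them out. Without these 3 kidneys Aqp3 and Aqp1 were still called higher (adjusted p = 0.0135 and 0.0293), Foxi1, Podxl and Hsd11b2 were not (0.0588, 0.108 and 0.0846) at log2 fold changes of 0.34, 0.18 and 0.14, close to the 0.35, 0.20 and 0.16 of all kidneys, and Aqp4 and Atp6v1b1, a proton pump subunit of intercalated cells, were (0.0446 and 0.0118), so that 4 markers were called.

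The fat transcripts differed between the same groups. Without the PB kidneys with the most Adipoq (PB animals 12, 15 and 17), Aqp3 and Aqp1 were called and the other 3 were not, with adjusted p of 0.0941 for Foxi1, 0.0826 for Podxl and 0.0919 for Hsd11b2. The log2 fold changes without them were 0.33 for Foxi1, 0.20 for Podxl and 0.17 for Hsd11b2. Over 15 alternatives that used the same threshold, Aqp3 and Aqp1 were called in 14, Foxi1 in 12, Podxl in 10 and Hsd11b2 in 7, and their adjusted p ranged over 0.00351 to 0.84, 0.00514 to 0.271, 0.0247 to 0.83, 0.0326 to 0.876 and 0.0314 to 0.952 in that order. At the thresholds of the study's methods (a ratio of means of at least 1.5 and p of at most 0.001) 0 markers passed in kidney, where 51 genes did.

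Of the other intercalated cell markers, Slc4a1, the basolateral anion exchanger that red cells also carry, had the segment's largest log2 fold change, 0.45 ± 0.144 (SE, adjusted p = 0.0745), with 180.4, 271.4 and 338.3 in PB kidneys and 106.7, 198.1 and 260.7 in control kidneys. These groups overlapped. Alas2, the heme synthesis enzyme of red cell precursors, was at 64.7 to 137.1 in PB kidneys and 51.3 to 362.1 in control kidneys, and was not called (log2 fold change -0.15, adjusted p = 0.777). Alas2 did not follow Slc4a1 across the tissues, with means of 1181.1 in PB livers and 1192.2 in control livers. Slc4a1 had means of 10.55 and 9.82 there. The red cell content of the kidneys was not tested. Slc26a4 and Atp6v1b1 had log2 fold changes of 0.18 each and adjusted p of 0.219 and 0.352.

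In the thick ascending limb the markers went in both directions without a call. Cldn10, a claudin that forms the paracellular sodium path there and is also expressed in the proximal tubule, had 1731.7, 2149.6 and 2532.5 in PB kidneys and 2224.0, 2461.2 and 2726.6 in control kidneys. It was the only marker with an unadjusted p under 0.05 and a negative log2 fold change, -0.20 ± 0.058 (SE, adjusted p = 0.0505), and 4 of 14 alternatives called it lower, centring on the median (adjusted p = 0.0378) among them, over a range of 0.0378 to 0.929. Cldn19 had the segment's largest log2 fold change, 0.33 ± 0.208 (adjusted p = 0.397), near the signal filter (median 59.9 in PB kidneys and 45.8 in control kidneys). Slc12a1 and the potassium channel gene Kcnj1 had log2 fold changes of 0.16 and 0.24 (adjusted p = 0.184 and 0.0876), the chloride channel subunit Bsnd 0.18 and the claudin Cldn16 -0.12.

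In the distal convoluted and connecting tubule no marker was called. Slc12a3, the thiazide-sensitive sodium-chloride cotransporter, had 1564.4, 2154.2 and 2414.1 in PB kidneys and 1748.1, 1993.2 and 2283.3 in control kidneys, with a log2 fold change of 0.09 ± 0.065 (SE, adjusted p = 0.481). Slc8a1, the sodium-calcium exchanger, had the segment's largest value, 0.12 ± 0.108 (adjusted p = 0.598), from 602.1, 824.2 and 1205.3 in PB kidneys and 574.7, 724.9 and 902.7 in control kidneys. The groups overlapped for both. The 95% intervals of Pvalb, Trpm6 and Calb1 (parvalbumin, a magnesium channel and calbindin) covered 0 and reached no further than -0.21 and 0.24.

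Apart from Aqp1, the log2 fold changes of the 11 other proximal tubule markers lay between -0.11 and 0.11, none called. They were the phosphate cotransporters Slc34a1 and Slc34a3, the glucose cotransporter Slc5a2, the lactate cotransporter Slc5a12, the endocytic receptors Lrp2 (megalin) and Cubn (cubilin), the bicarbonate cotransporter Slc4a4, the amino acid transporter Slc7a13, the sulfate cotransporter Slc13a1, the dicarboxylate cotransporter Slc13a3, and Kap, the kidney androgen-regulated protein. Kap had 14222.5, 16030.9 and 20090.2 in PB kidneys and 13557.2, 17667.3 and 21814.0 in control kidneys, with only 1 PB kidney above the control median (log2 fold change -0.11 ± 0.073 (SE), adjusted p = 0.446). Of 7 genes listed as responding to androgen in kidney, a list that includes Kap, 5 fell in PB kidneys (median log2 fold change -0.34). For 6 of the 17 markers with more than 1 probe set at a kidney signal of 50 or more, the probe sets differed in sign (Calb1, Lrp2, Slc13a1, Slc4a4, Slc5a12 and Slc7a13). For Slc7a13 the second probe set had a mean log2 difference of 0.63 against -0.01 for the one used, at means of 819 and 7431 in PB kidneys.

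Other genes of the same segments were counted from lists kept apart from the markers. In kidney 1 of 7 other podocyte genes, 2 of 33 other proximal tubule genes, 0 of 11 other loop genes, 1 of 13 other distal and connecting tubule genes and 1 of 12 other intercalated cell genes were higher, with 0 lower. Of 16 other collecting duct genes 1 was higher and 1 lower. Their median log2 fold changes were 0.18 (podocyte), -0.03 (proximal), 0.08 (loop), 0.02 (distal), 0.09 (intercalated) and 0.04 (collecting duct). Of the remaining lists, 0 of 7 immune genes, 0 of 4 urothelial genes and 0 of 5 kidney injury genes were called. In addition 1 of 11 fibroblast, mesangial and smooth muscle genes was higher, 1 of 5 hepatocyte genes was lower, and of 13 clock genes 5 were higher and 2 lower. All 6 adrenal cortex genes were under the filter.

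In liver 31 of the 40 markers had means under 50 in both groups and 9 were tested, and 1 of the 9, Slc13a3, rose with PB while 0 fell, where 6.92% of the 9839 genes tested were called higher and 8.69% lower. Slc13a3, the sodium-dicarboxylate cotransporter of the basolateral proximal tubule, had 292.9, 371.7 and 768.6 in PB livers and 134.1, 219.5 and 262.0 in control livers. Every PB liver lay above every control liver, which held for 1.33% of all genes in that direction. The mean was 411 ± 144 in PB livers and 214 ± 44.4 in control livers (SD, n = 10 each), a ratio of 1.92, and the log2 fold change was 0.91 ± 0.154 (SE, adjusted p = 0.000233). It was called in all 14 alternatives at the same threshold (adjusted p between 5.56e-07 and 0.00971). Its probe set can take up related transcripts (its identifier ends in _x_at), and a second, gene-specific probe set had means of 129 in PB livers and 74.4 in control livers. Centring on the median turned the split of all liver calls from 681 higher and 855 lower to 805 and 665.

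The 250 bases before the start of Slc13a3 are shown because it was the only marker that rose in liver (GRCm38.p6, chr2:165473198-165473447, minus strand, 5′ to 3′ on the strand of the gene), with the E-box CACGTG, a palindrome bound by clock and other basic helix-loop-helix factors, in capitals 154 bases before the start.
Slc13a3: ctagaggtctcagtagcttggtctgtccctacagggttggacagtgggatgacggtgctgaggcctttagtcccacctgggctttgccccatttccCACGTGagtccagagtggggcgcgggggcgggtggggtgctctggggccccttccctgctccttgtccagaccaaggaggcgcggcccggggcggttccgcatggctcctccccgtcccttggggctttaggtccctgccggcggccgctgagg
CACGTG was in 6.02% of all promoters and in 2 of the 27 (Aqp2 and Slc13a3). The nuclear receptor direct repeat DR4, at whose spacing CAR can bind with its partner receptor, was in 0.0152% of all promoters and in 0 of the 27, in either orientation.

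The other 8 markers tested in liver were not called. Aqp1 had 323.2, 396.9 and 603.7 in PB livers and 403.4, 459.2 and 582.4 in control livers (log2 fold change -0.19 ± 0.102 (SE), adjusted p = 0.224), and Slc4a4 had 289.5, 375.0 and 472.7 in PB livers and 361.0, 393.9 and 505.8 in control livers (-0.12, adjusted p = 0.395). Scnn1a had 108.2, 178.4 and 214.3 in PB livers and 124.9, 172.2 and 249.7 in control livers. These genes have known expression outside the nephron, and their groups overlapped. Slc34a3, Aqp4 and Avpr2 were near the filter, with medians of 69.6, 66.6 and 48.7 in PB livers and 65.5, 58.6 and 42.8 in control livers, and log2 fold changes of -0.08, -0.02 and 0.24.

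Slc34a1 and Kap passed the liver filter through single livers. The liver of control animal 5 had Kap at 1230.2, Slc34a1 at 163.6, Umod at 122.9 and Calb1, the calcium-binding protein of the distal tubule, at 76.6, where the other control livers had at most 221.5, 53.2, 29.5 and 23.6. It was the highest control liver for 15 of the 40 markers. Above the median of the other control livers, its excess was 8.22% of the signal of the same animal's kidney for Kap, 1.69% for Slc34a1, 1.61% for Calb1 and 0.959% for Umod. These 4 were chosen for their high values there, and not every marker bright in that kidney had an excess: Slc12a1 was at 11.2, against a median of 15.1 in the other control livers, and Aqp1 at 454.7, against 463.8. Kap was also at 234.0 in the liver of PB animal 17 and 221.5 in that of control animal 3, with medians of 7.7 in PB livers and 9.3 in control livers. Without these 3 livers 7 markers were tested in liver and 1, Slc13a3, was called.

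**Figure D4:**
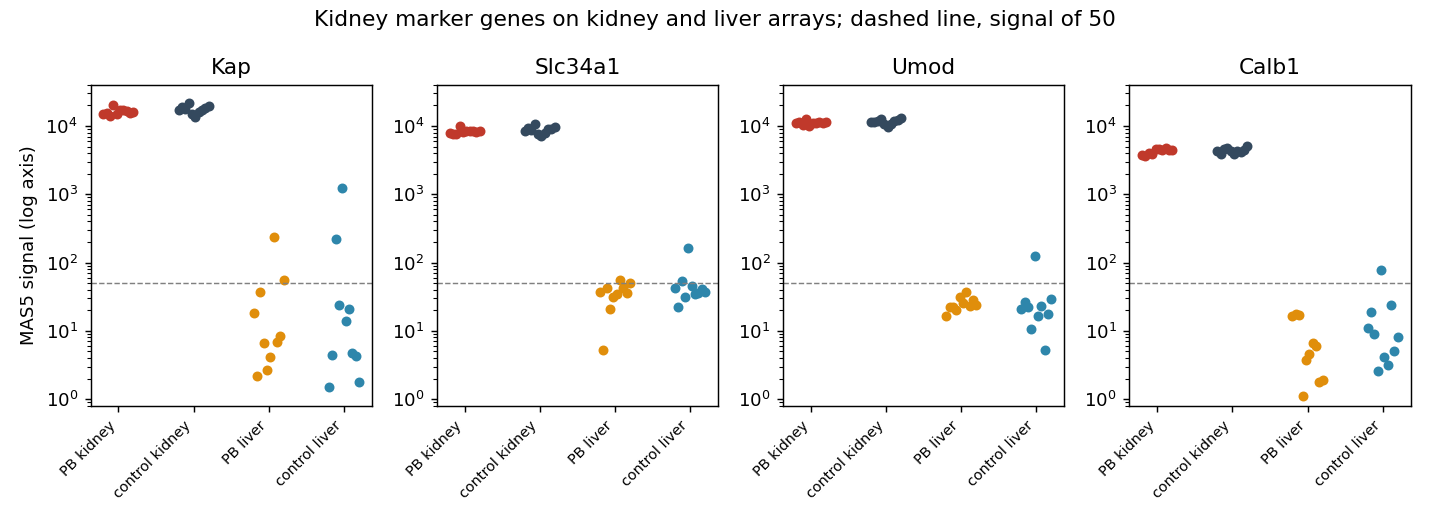
MAS5 signal, on a log axis, of Kap, Slc34a1, Umod and Calb1 in PB kidney, control kidney, PB liver and control liver, with 1 point per array; the dashed line marks the signal filter of 50. Every kidney lies far above every liver, and the liver of control animal 5 lies above the other livers for each gene, at 1230.2 for Kap.

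The PB effect was also compared between the tissues, as the effect in kidney minus that in liver over all 40 arrays. Of the 40 markers 1 was called higher and 1 lower, where 4.82% and 4% of the 11153 genes tested were. For 31 of the 40 the liver means were under 50 in both groups, so a difference could hardly be called. The SE of the difference was 0.510 for Aqp3 and 0.514 for Foxi1, against 0.065 and 0.090 for the effect in kidney. A missing call there does not show a like effect in both tissues. Slc13a3 had a difference of -0.79 ± 0.177 on the log2 scale (SE, adjusted p = 0.00261): in kidney its signals were 3349.5, 4414.8 and 5329.7 in PB animals and 3342.6, 4128.8 and 4566.6 in controls, with a log2 fold change of 0.11 ± 0.070 that was not called (adjusted p = 0.377). Aqp1 had a difference of 0.39 ± 0.114 (adjusted p = 0.0266), from log2 fold changes of 0.20 in kidney and -0.19 in liver. With the animal as a block the adjusted p was 0.00165 for Slc13a3 and 0.0218 for Aqp1. The call of Aqp1 was lost with centring on the median (adjusted p = 0.0501) and without the kidneys of PB animals 12, 15 and 17 (0.0542), over a range of 0.0189 to 0.0542, while its difference stayed at 0.35 and 0.38. Centring turned the split of all calls from 538 higher and 446 lower to 359 and 526.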

How the data were processed

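The intensity values that the authors deposited are linear MAS5 signals, brought by them to a trimmed mean of 150 on every array (GCOS and MAS5 in the submitters' processing notes, without versions), with no other normalization named. All value columns belong to samples of the series. Names of probe sets come from the platform annotation, and symbols were updated through Entrez numbers with the RefSeq gene table of GRCm38.p6. Of 45037 probe sets 34945 had 1 symbol (34741 of them found in the table), 932 had several and 9160 had none.

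Each gene was read from its probe set of highest mean on the 20 kidney arrays, and kept in a comparison where a group mean was at least 50. Log2 was taken after raising signals below 1 to 1. Groups were compared with limma (lmFit, eBayes with a trend), two-sided, with Benjamini-Hochberg adjustment over all genes kept and a threshold of 0.05. Log2 fold changes are PB minus control, or kidney minus liver. Where a liver mean was under 50, the fold of kidney over liver is a bound, the kidney mean divided by 50. Correlations of log2 signal used permutation tests with 100000 resamples, adjusted over the 10 pairs. The fits and the correlations were tested on simulated data with known changes.

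The members and lists were chosen with earlier results of these data known. Values by sample are given for each marker called in kidney or liver, the 5 anchor genes, the marker with the largest log2 fold change in kidney in each segment, and, in liver, markers with a mean of at least 50. A few further values (Slc26a4, Slc12a1 and others in single kidneys) were chosen after they were seen.

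The animal number in the labels pairs a kidney with a liver. Over 11153 genes the deviations from the group means of an animal's tissues had a median r of 0.0474 (lowest -0.0446, highest 0.0971), against -0.00115 between different animals, and for 9 of 20 livers the animal's own kidney gave the highest r. No 2 arrays held identical values.

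Promoters were searched on both strands over 250 bases, and the matches in the markers did not overlap. Alternatives tried were a stricter filter (100) or no filter, an offset of 16, quantile normalization, centring on the median, robust eBayes, other choices of probe set, the methods' t-test on log2 or linear signal, the study's thresholds, the number in the sample description as a covariate, all 40 arrays in 1 fit, the animal as a block, and, added after the data had been seen, leaving out 3 kidneys with little Slc14a2, 3 kidneys with fat transcripts and 3 livers with Kap. Fits used limma 3.58.1 under R 4.3.3. The remaining steps were run under Python 3.11.15, with pandas 2.3.3 for tables, NumPy 2.4.6 and SciPy 1.17.1 for statistics, and figures drawn in matplotlib 3.10.9.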

Additional observations from a re-analysis of the deposited data

Results flagged for a closer look

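Within groups of 10 arrays, 9 of 92 sets of marker values held an array far from the rest, measured as its gap to the nearest array over the range of the group on the log2 scale. Chance gives about 1 in 20. In kidney, PB animal 14 was high for Slc34a1 (10164.7 against 7580.2 to 8530.3 in the other PB kidneys, gap 0.598 of the range) and for Umod (12820.2 against 10070.7 to 11453.3, gap 0.467). Control animal 2 was low for Slc13a3 (3342.6 against 3873.0 to 4566.6, gap 0.472) and for Pvalb (572.9 against 634.1 to 690.6, gap 0.543). PB animal 18 was high for Scnn1b (202.6 against 132.1 to 160.2, gap 0.549). For Atp6v1b1, PB animal 15 was low (149.6 against 220.6 to 299.0, gap 0.561) and control animal 4 was high (322.8 against 186.2 to 225.6, gap 0.651), and both are kidneys with little Slc14a2. In liver, control animal 5 was high for Slc34a1 (163.6 against 22.5 to 53.2, gap 0.566) and PB animal 13 was low for Slc34a3 (36.3 against 57.0 to 85.5, gap 0.527).

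The PB effect differed between the tissues, by the interaction over all 40 arrays, for Aqp1 (kidney minus liver 0.39 on the log2 scale) and for Slc13a3 (-0.79).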

How the results depend on the processing

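PB against control in kidney called 5 markers higher and 0 lower as reported. The count higher was 3 with no filter, 8 with the mean of a gene's probe sets (Calb1, Slc4a1 and Slc7a13 added), 2 without the PB kidneys richest in fat transcripts, and 0 at the study's thresholds or with all 40 arrays in 1 fit, where livers, in which most markers are dim, share the estimate of spread. Cldn10 was the 1 marker called lower with a filter at 100, centring on the median, robust eBayes or the mean of probe sets. The genes called in kidney numbered 447 as reported, 150 with all 40 arrays, 51 at the study's thresholds, 196 without the 3 kidneys with little Slc14a2 and 241 without the 3 with fat transcripts. In liver they numbered 1536 as reported, 2336 probe sets with all probe sets fitted and 258 at the study's thresholds. For the difference between tissues, 1 marker was called higher as reported, 0 with centring on the median or without the fat-rich kidneys, and 2 (Aqp1 and Lrp2) without _s_at and _x_at probe sets. With the animal as a replicate block 39 markers in PB mice and 37 in control mice were called higher in kidney than in liver, and for the difference between tissues 1 was called higher and 1 lower, so the paired fit changed the call of no marker. Over all genes it called 609 higher and 494 lower for that difference, against 538 and 446 as reported.

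Signs that turned were nearly all of values close to 0. With quantile normalization the log2 fold change in kidney was 0.002 for Slc34a1, 0.002 for Lrp2, 0.000 for Kap, 0.071 for Slc7a13, 0.039 for Umod, 0.005 for Calb1 and -0.009 for Trpm6. With the mean of probe sets it was 0.035 for Lrp2, 0.31 for Slc7a13, 0.088 for Slc13a1 and 0.23 for Calb1, the calls of Slc7a13 and Calb1 having adjusted p of 0.0209 and 0.02. Centring on the median gave Trpm6 -0.007, and the description number as a covariate gave Trpm6 -0.002, Slc7a13 0.008 and the tissue difference of Aqp3 -0.013. Without the kidneys with little Slc14a2 it was -0.042 for Wt1, -0.027 for Slc5a12, 0.039 for Slc7a13, -0.090 for Trpm6 and -0.003 for Slc8a1, and without the fat-rich kidneys 0.024 for Slc7a13, 0.032 for Pvalb and -0.027 for Trpm6. At the study's thresholds, which use the ratio of means, Pvalb had 0.000. The cause was not tested.

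Of the correlations, quantile normalization gave -0.31 for Slc34a1 and Umod, -0.48 for Umod and Slc12a3, 0.24 for Nphs1 and Slc34a1 and -0.04 for Nphs1 and Aqp2. Deviations from the group means gave 0.01 for Nphs1 and Slc34a1, and 0.61 for Slc34a1 and Slc12a3, then past the threshold (permutation test, adjusted p = 0.0239). Without the 2 farthest kidneys the r was 0.17 for Slc34a1 and Aqp2 and -0.19 for Umod and Aqp2. Signals under the filter of 50 are not read as levels.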
